A study of Mus musculus with 22 samples.

Results

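The 40 proliferation genes described here encode proteins that copy DNA, condense and segregate chromosomes and divide the cell. They were listed by name and all 40 were found among the 31053 genes of the count matrices. A barcode, the tag shared by all RNA captured in 1 droplet, was counted as cycling when at least 3 of the 40 members had a UMI, a molecular tag that marks 1 captured transcript. The count was limited to barcodes in which 200 or more genes were detected and no more than 25% of UMIs were mitochondrial, which 95843 of 179929 passed, and 8793 of those 95843 met the rule (9.17%).

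The 22 libraries came from mice with a tamoxifen-inducible Cre recombinase under the Prom1 promoter, which is active in stem and progenitor cells of several organs, and a Cre-activated ZsGreen (ZSG) reporter. For a conditional allele of Nalcn, which encodes a sodium leak channel, the labels named mice as wt (wild type), het or null. Wild-type mice also carried the Cre and the reporter. The Cre was activated with tamoxifen early in life, in newborn or young adult mice, and the mice were 551 to 654 days old at collection. The ntCZC libraries (2 wt, 4 het, 4 null) held ZSG-positive cells sorted from the blood of mice without tumours. The tissue libraries (5 wt, 2 het, 2 null) held a pool of stomach, lung, liver and kidney with the epididymis of males or the uterus of females, and 1 library held peripheral blood mononuclear cells (PBMC) of a 120-day-old wt male. Because organs were pooled, no barcode had an organ of origin here. Another 2 tissue libraries carried labels that named different genotypes and entered no comparison. An age and a sex were shared by tissue wt replicates 1 and 2, by both tissue het libraries and by ntCZC het replicates 2 and 4. The ntCZC and tissue libraries numbered wt replicate 1, wt replicate 3, het replicate 2 and null replicate 2 also matched each other in genotype, sex and age. The labels do not say whether each library came from its own mouse or whether ntCZC and tissue libraries shared mice, so p-values measured the spread between libraries.

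An ntCZC library held 11 to 578 passing barcodes and a tissue library with a group 287 to 18242. Their median UMIs per barcode were 2580 to 8600 in ntCZC and 1046 to 6363 in tissue. Nalcn itself could not check the genotype labels at this depth. It had 44 UMIs in tissue, 28 in wt, 6 in het and 10 in null libraries, and 0 in ntCZC, and whether the counted 3′ end lay inside the deleted segment was not known. As a check of labels, Xist and 4 genes of the Y chromosome followed the stated sex in all libraries but tissue null replicate 3. That library, labelled female, held Y-linked RNA at 43.0 CPM (counts scaled to 1000000 UMIs per library) beside Xist at 1318 CPM. It also held epididymal epithelial-like barcodes by the marker gates described below. Tissue had 2643 of these with it and 1564 without it. It was kept as labelled, female, in the fits. Between 0% and 8.33% of a library's passing barcodes occurred in another library too. ntCZC wt replicate 3 stood apart, with its 11 passing barcodes and 22.6% of UMIs from haemoglobin genes.

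A dividing cell makes these transcripts in waves. Replication genes such as the Mcm helicase subunits, Pcna (the sliding clamp of DNA polymerase) and Rrm2 (a subunit of the enzyme that makes deoxynucleotides) are switched on by E2F factors as DNA synthesis begins. Later genes such as Cdk1, Ccnb1, Plk1 and Bub1 peak toward mitosis under B-Myb and FOXM1, which act through the CCAAT-binding factor NF-Y and a short element called the cell cycle homology region (CHR). In adult mice division is frequent in gastric mucosa, germinal-centre B cells, activated T cells and blood precursors, and rare in most stromal and tubular cells.

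The sequences upstream of 4 members show these elements. The windows are the 250 bases before the RefSeq start on GRCm38.p6, written 5′ to 3′ on the gene's strand, with capitals marking 3 motifs searched on both strands. They are the CCAAT box, the CHR letters TTTGAA with the variant TTCGAA, and 4 forms of the E2F site, namely TTTGGCGC, TTTCCCGC, TTTGCCGC and TTTCGCGC. Positions count back from the start, -1 being the base before it. Mki67 (chr7:135716380-135716629, minus strand) and Top2a (chr11:99024190-99024439, minus strand) are shown because they were the members with CHR letters most often detected in tissue barcodes with 10 or more members, Ccnb2 (chr9:70421555-70421804, minus strand) as a mitotic cyclin and Mcm6 (chr1:128359706-128359955, minus strand) as a replication gene.
Mki67: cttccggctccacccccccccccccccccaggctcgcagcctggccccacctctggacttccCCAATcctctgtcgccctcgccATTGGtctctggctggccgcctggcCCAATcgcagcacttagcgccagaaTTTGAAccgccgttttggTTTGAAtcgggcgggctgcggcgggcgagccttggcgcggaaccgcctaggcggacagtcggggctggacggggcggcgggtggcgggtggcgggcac
Top2a: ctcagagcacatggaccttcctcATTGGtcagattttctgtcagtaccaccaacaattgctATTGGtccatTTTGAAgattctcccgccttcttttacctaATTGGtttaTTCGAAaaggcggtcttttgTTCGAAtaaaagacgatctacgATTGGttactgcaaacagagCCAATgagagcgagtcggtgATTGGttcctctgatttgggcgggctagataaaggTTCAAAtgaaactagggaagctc
Ccnb2: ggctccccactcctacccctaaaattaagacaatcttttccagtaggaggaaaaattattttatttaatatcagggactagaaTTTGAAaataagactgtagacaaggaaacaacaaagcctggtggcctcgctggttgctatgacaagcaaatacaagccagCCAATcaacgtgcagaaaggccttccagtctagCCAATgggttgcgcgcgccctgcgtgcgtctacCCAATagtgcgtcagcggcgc
Mcm6: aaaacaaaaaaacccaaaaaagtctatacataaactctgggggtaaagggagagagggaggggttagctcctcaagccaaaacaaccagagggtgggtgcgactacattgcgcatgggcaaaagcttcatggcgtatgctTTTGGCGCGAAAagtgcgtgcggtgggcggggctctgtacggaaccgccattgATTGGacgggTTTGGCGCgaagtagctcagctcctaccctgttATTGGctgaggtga
Mki67 held CCAAT letters at -188, -166 and -141 and CHR letters at -116 and -98. Top2a held 6 CCAAT and 4 CHR matches, the nearest CHR letters at -23. Ccnb2 held 3 CCAAT matches, at -87, -54 and -21, and CHR letters at -167. Mcm6 held E2F letters at -110, -106 and -47, of which the first 2 overlap. It also held CCAAT letters at -57 and -14, and no CHR letters. Other members named above as examples lacked such letters: Pcna and Rrm2 held no E2F letters, and Ccnb1, Plk1 and Bub1 no CHR letters.

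Of the 40 members, 34 had a window in the table, with 36 windows in all. CCAAT letters were present in 33 of those 36 windows (91.7%), against 33.8% of 32851 windows of the same length over all genes. CHR letters were in 11 (30.6%, against 17.1%) and E2F letters in 4 (11.1%, against 1.86%). The 72 windows of other cell cycle genes described next held CCAAT letters in 56.9%, CHR letters in 36.1% and E2F letters in 15.3%. These are letter matches, described without a test, and a window without a match says only that these letters were not in it. Stmn1, Spc24, Ccna2, Tpx2, Kif20a and Aurkb are named only.

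Whether the members mark dividing cells was checked on 82 other cell cycle genes that the rule did not use. Each barcode was thinned to 1000 UMIs before members and other genes were counted, and 12088 tissue barcodes below that depth were left out. Tissue barcodes with 0 members had a mean of 1.44 of the 82 genes detected, those with 2 members, just outside the rule, 2.18, and those with 3 members, just inside it, 4.47. With 4 members the mean was 6.47, with 5 to 9 it was 8.62 and with 10 to 19 it was 10.6. The other genes climbed with the number of members at equal depth.

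At full depth the rule also followed depth. In tissue, 0.761% of barcodes under 1000 UMIs had 3 or more members, 2.40% of those with 1000 to under 2000, 9.60% with 2000 to under 5000, 24.7% with 5000 to under 10000 and 53.8% of those with 10000 or more. ntCZC barcodes followed the same order, from 0 of 148 at under 1000 UMIs to 37.7% at 10000 or more. Tissue barcodes with exactly 3 members had a median of 6350 UMIs, against 1507 for barcodes with 0. Shares are therefore given at full depth, as the rule states, and at 1000 UMIs, where every barcode has the same number of UMIs, with 12088 of 72758 tissue and 148 of 2109 ntCZC barcodes left out as shallower. A stricter count of 10 or more members, added after the data had been seen, is given beside them.

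Over all 95843 barcodes, 9403 had 2 members, 3340 had 3 and 1368 had 4. In wider bins, which pool several counts each, 1807 had 5 to 9 members, 1333 had 10 to 19 and 945 had 20 or more. In tissue 1888 barcodes (2.59%) had 10 or more members, in ntCZC 20 of 2109 (0.948%) and in PBMC 1 of 679.

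**Figure D1:**
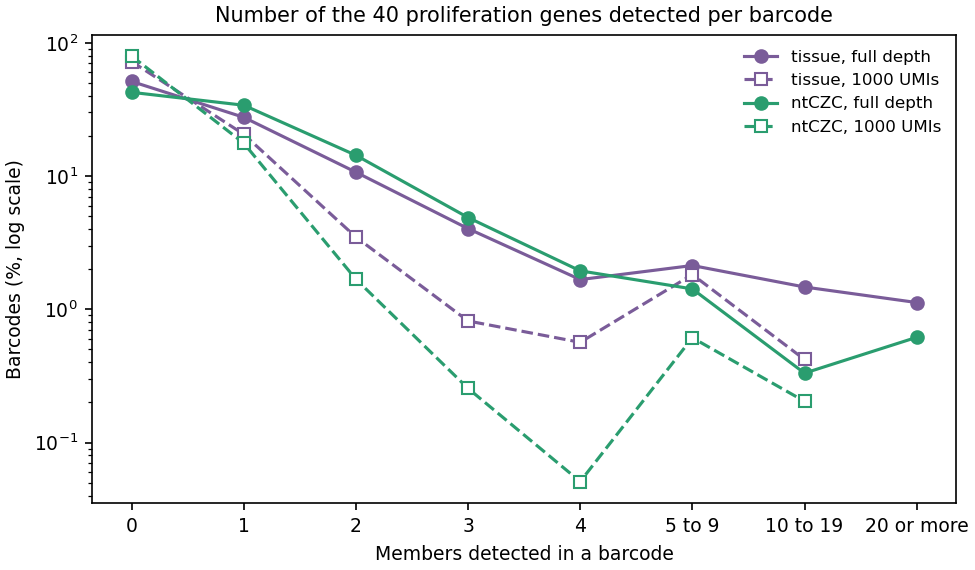
Share of passing barcodes (%, log scale) by the number of the 40 members detected, for tissue libraries with a group (purple) and ntCZC (green), at full depth (filled circles) and after thinning to 1000 UMIs (open squares). At full depth the curves lie close together up to 4 members and part at 10 to 19, where tissue has 1.47% of barcodes and ntCZC 0.332%. Bins above 4 members pool several counts each.

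The members differed widely in how closely they travelled with the rest of the list. The share of tissue barcodes with a UMI of a member ran from 0.605% for Kif20a, a motor protein of the dividing cell's midzone, to 15.2% for Stmn1, a microtubule-destabilising protein, with a median of 2.20%. Of the barcodes with a UMI of a given member, between 16.9% and 89.1% had 5 or more of the other 39, with a median of 67.9%, and 27 members were over 50%. These shares are across barcodes of the same libraries, so they are a description.

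Mitotic kinases, cyclins and the anaphase-promoting complex formed the tightest group of 13 members, with a median of 77.9%. Bub1, a spindle checkpoint kinase, stood highest at 89.1%, and Ccna2 (cyclin A2) reached 84.2%. Cks1b, a small subunit of cyclin-dependent kinase complexes, was lowest of this group at 37.6%. Among the 8 spindle and cytokinesis members the median was 72.6%, from 88.7% for Hmmr, a spindle-associated hyaluronan receptor, down to 22.1% for Stmn1. The 7 centromere and kinetochore members had a median of 71.1%, led by Cenpf at 80.0%, a kinetochore protein of late cycle stages.

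Replication and nucleotide supply was looser, with a median of 37.4% over its 10 members. Rrm2 reached 74.4% and Pclaf, a clamp-associated factor, 74.2%, while Mcm3 was at 31.9%, Rrm1 at 32.3% and Pcna at 17.0%. Mki67, the antigen used to stain proliferating cells, was at 64.9% and Top2a, the topoisomerase that untangles replicated chromosomes, at 62.7%. In tissue barcodes with 10 or more members, Stmn1 was detected in 92.6%, Top2a in 85.4%, Pclaf in 84.6% and Mki67 in 83.6%.

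Cenpa, the histone H3 variant of centromeres, was as loose as Pcna, at 16.9%. It had a UMI in 20.4% of B cell-like barcodes of tissue and in 43.1% of those of ntCZC, where a barcode with Cenpa had a median of 1 other member. At 1000 UMIs these shares were 11.6% and 14.2%, and Cenpa had 1.32 and 1.20 UMIs per 10000, so the gap shrank at equal depth. Stmn1 was detected in 23.8% of ciliated-like and 23.0% of endothelial-like tissue barcodes, in which Mki67 was detected in 0.58% and 1.45%. Stmn1 and Cenpa thus appeared in many barcodes without the rest of the list.

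**Figure D2:**
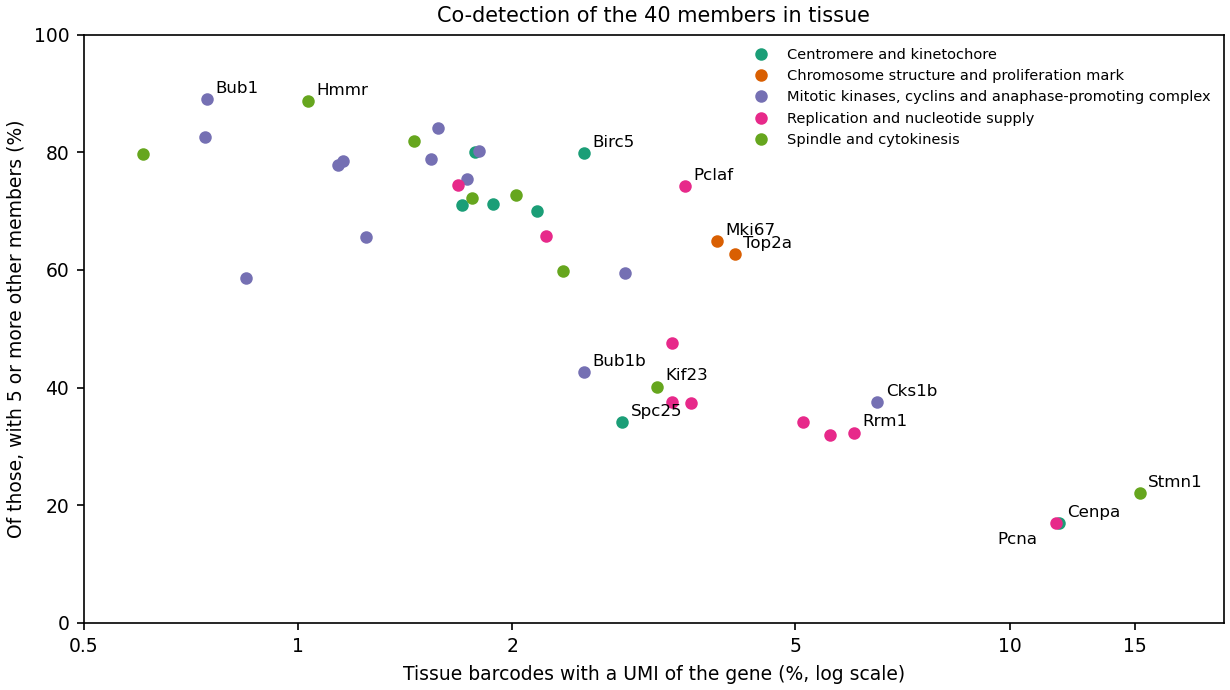
Each point is 1 of the 40 members, by the share of tissue barcodes with its UMI (%, log scale) and the share of those barcodes that had 5 or more other members (%), coloured by role. Bub1 (89.1%) and Hmmr (88.7%) lie at the top, and Stmn1, Pcna and Cenpa at the lower right, at 22.1%, 17.0% and 16.9%.

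Levels are given as CPM of the UMIs summed over the passing barcodes of a library. In bulk sums of this kind, fewer dividing cells and less RNA per dividing cell cannot be told apart. One UMI was counted per captured transcript at its 3′ end, so CPM was not scaled by gene length. Mki67 (ENSMUSG00000031004, chromosome 7, 135689784 to 135716361 of GRCm38, minus strand) ranged from 18.6 CPM in tissue wt replicate 2 to 89.7 in tissue wt replicate 4, with a median of 29.9 over the 9 tissue libraries. In ntCZC it ranged from 0 in wt replicate 3 and het replicate 2 to 59.5 in het replicate 1 and 55.6 in null replicate 1, with a median of 8.47. Most ntCZC libraries were low and a few reached tissue levels, so the groups overlapped.

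Top2a (ENSMUSG00000020914, chromosome 11, 98992943 to 99024189, minus strand) ran from 21.4 to 127 CPM in tissue (median 27.8), again highest in wt replicate 4, and from 0 to 52.9 in ntCZC (median 5.82). Stmn1 (ENSMUSG00000028832, chromosome 4, 134468320 to 134473843, plus strand) was even across tissue, at 104 ± 20.1 CPM (SD, n = 9), and uneven in ntCZC. It was at 116 CPM in het replicate 1, 108 in het replicate 4 and 82.0 in null replicate 1, and at most 36.2 in the other 7. Pcna (ENSMUSG00000027342, chromosome 2, 132249162 to 132253314, minus strand) was at 42.1 ± 11.8 CPM in tissue (n = 9) and 40.9 ± 17.7 in ntCZC (SD, n = 10), with full overlap.

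The first comparison asked whether tagged cells in the blood carried the proliferation programme to the same extent as cells of the organs. The share of barcodes with 3 or more members averaged 12.2% ± 6.34 over the 10 ntCZC libraries and 10.9% ± 6.12 over the 9 tissue libraries (SD), 1.32 percentage points apart (exact two-sided permutation p = 0.650). It was 1.66 points without ntCZC wt replicate 3 and 0.558 without tissue null replicate 3. Single ntCZC libraries lay between 4.07% and 25.5%, tissue libraries between 4.41% and 21.95%. Pooled over barcodes, the share was lower in ntCZC, at 9.20% (194 of 2109) against 10.4% in tissue (7589 of 72758). The direction at full depth thus changed with the weight given to small libraries. At 1000 UMIs the difference of library means turned, to 1.32% ± 2.44 in ntCZC and 3.86% ± 2.69 in tissue, or -2.54 points (exact permutation p = 0.0476). With 10 or more members it was -1.69 points (1.10% ± 2.09 against 2.80% ± 2.17, exact permutation p = 0.111). Over the 4 pairs matched in number, genotype, sex and age the difference was 0.299 points at full depth (exact sign-flip p = 1.00) and -2.598 at 1000 UMIs (exact sign-flip p = 0.125, the smallest 4 pairs allow), with the ntCZC library the lower in 4 of 4.

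At 1000 UMIs 5 ntCZC libraries had no barcode with 3 or more members (wt replicate 3, het replicates 2 and 3 and null replicates 2 and 3). A count of 0 allowed a share of up to 33.3% in wt replicate 3 but 2.01% in het replicate 3 and 1.08% in null replicate 2. The highest was null replicate 1, at 7.76% (95% Clopper-Pearson interval 3.61 to 14.2, counting error only). All 9 tissue libraries lay between 1.82% and 9.16%. ntCZC was the deeper kind per barcode, with library medians of 4797 ± 1706 UMIs (n = 10) against 2567 ± 1612 (n = 9).

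**Figure D3:**
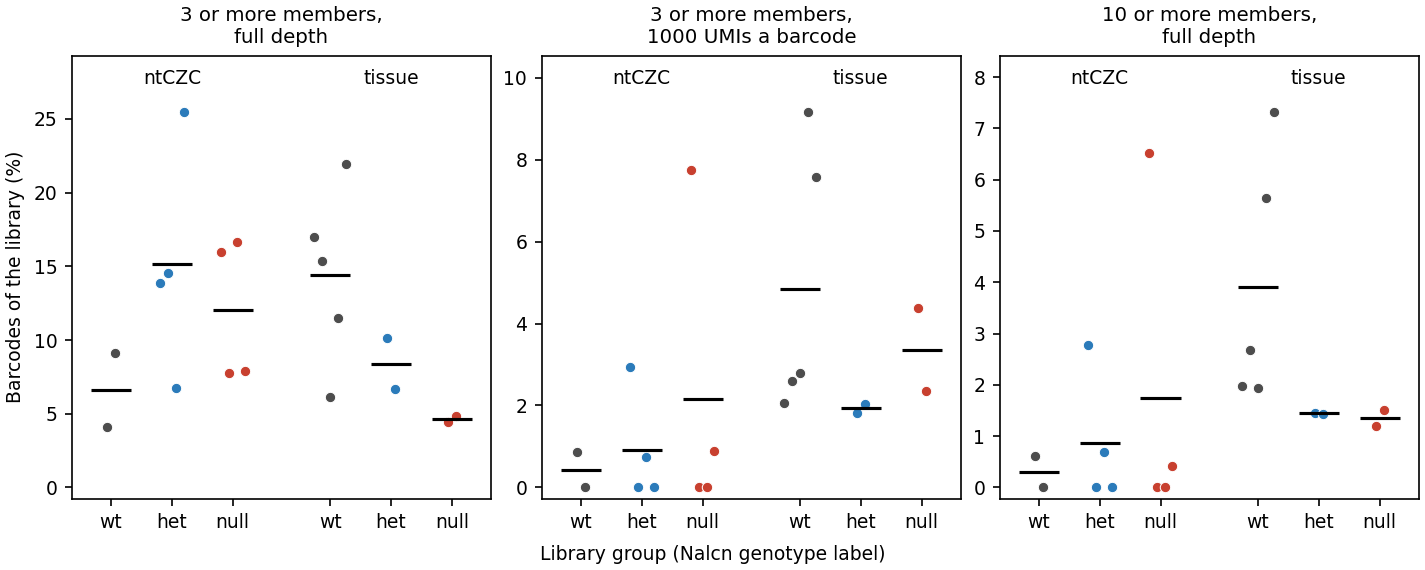
Each point is 1 library and each line a group mean, in % of the library's passing barcodes, for 3 or more members at full depth, 3 or more members at 1000 UMIs, and 10 or more members at full depth. ntCZC and tissue overlap at full depth, and at 1000 UMIs the ntCZC points lie at 0 to 2.94% except 1 null library at 7.76%.

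The 20 ntCZC barcodes with 10 or more members came from 5 of the 10 libraries, and 9 of them from null replicate 1. By surface and lineage markers 6 were T cell-like, 5 B cell-like, 5 macrophage-like, 1 NK cell-like and 1 mesothelial-like, and 2 passed no gate. None of these barcodes occurred in another library. In T cell-like barcodes of wt replicate 1 and het replicate 4, 3 in each, 29 to 36 of the 40 members were detected, all 6 with Mki67 and Top2a.

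In the fit over all genes (edgeR quasi-likelihood, Benjamini-Hochberg adjusted), 32 of the 40 members passed the filter on low counts in ntCZC against tissue. Of all 10469 genes tested, 25.4% were higher and 34.8% lower in ntCZC. Among the 32 members 0 were higher and 5 lower, a share below that background, while 27 had a negative log2 change. The members' median log2 change was -0.59, against -0.09 over all genes. It was -0.97 without ntCZC het replicate 1 and -0.23 with all deposited barcodes (-0.10 and -0.08 over all genes). Under relative log expression (RLE) scaling the median of all genes shifted to -0.26 and 9 members were lower, where 41.9% of all genes were. With no filter on low counts 6 of all 40 were lower, against 29.8% of all 25179 genes. The filter could otherwise be met by the tissue libraries alone, which keeps members scarce in ntCZC. The count of negative changes and the medians above are therefore a description.

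The 5 that fell were Spc25, a subunit of the Ndc80 kinetochore complex (log2 change -1.61, SE 0.37, adjusted p = 0.000858), Uhrf1, which guides DNA methylation after replication (-1.59, SE 0.57, adjusted p = 0.0195), Cenpe, a kinetochore motor (-1.28, SE 0.52, adjusted p = 0.0386), Bub1b, a spindle checkpoint protein (-1.11, SE 0.28, adjusted p = 0.00188), and Mcm2, a subunit of the replicative helicase (-0.75, SE 0.29, adjusted p = 0.0326). Spc25 was at 3.00 ± 3.8 CPM in ntCZC and 10.9 ± 3.01 in tissue. It had 0 UMIs in 3 ntCZC libraries and reached 11.0 CPM in het replicate 1, inside the tissue range of 7.38 to 15.9. Bub1b was at 3.54 ± 2.81 against 9.5 ± 3.03 CPM, Uhrf1 at 2.93 ± 5.22 against 10.6 ± 8.30 and Cenpe at 3.41 ± 5.91 against 8.80 ± 4.54. Mcm2 means were close, at 11.6 ± 16.6 against 12.8 ± 6.19 CPM. Its ntCZC range of 0 to 57.6 CPM held the tissue range of 9.36 to 28.9. The count was 5 without ntCZC wt replicate 3 and 5 without tissue null replicate 3, and it ran from 2 without tissue wt replicate 4 to 15 of 32 without ntCZC het replicate 1. Of all genes, 34.7% and 34.6% were lower in those fits, so without ntCZC het replicate 1 the members' share lay above that of all genes. With any 1 library left out Spc25 and Bub1b still passed (highest adjusted p of 0.00307 and 0.00603), whereas Cenpe, Mcm2 and Uhrf1 did not pass without tissue wt replicate 4 (adjusted p of 0.105, 0.103 and 0.0512). Cenpe and Mcm2 also missed the threshold when certain other libraries were left out.

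Stmn1 (-1.14, SE 0.53, adjusted p = 0.0678), Top2a (-0.95, SE 0.48, adjusted p = 0.0916) and Mki67 (-0.62, SE 0.50, adjusted p = 0.299) did not pass, and Pcna was at 0.02 (SE 0.21, adjusted p = 0.940). Without ntCZC het replicate 1 Top2a passed (-1.32, adjusted p = 0.0163). Stmn1 passed without ntCZC het replicate 1, het replicate 4 or null replicate 1 (adjusted p of 0.0302, 0.0320 and 0.0284). With RLE scaling both passed (adjusted p = 0.0462 for Top2a and 0.0354 for Stmn1). Ube2c, the ubiquitin-conjugating enzyme of the anaphase-promoting complex, had the widest spread. Its 489 CPM in ntCZC wt replicate 3 came from 17 UMIs in 1 barcode of the library rich in haemoglobin RNA, whereas the ntCZC median was 2.76 CPM. Its log2 change was -0.12 (SE 0.80, adjusted p = 0.919).

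Of the 82 other cell cycle genes, 44 were tested in ntCZC against tissue, 11 higher and 6 lower, beside 25.4% and 34.8% of all genes, with a median log2 change of -0.05. The lower ones included Lmnb1, a nuclear lamina protein (-1.24, SE 0.32), and Anln, a cytokinesis scaffold (-1.17, SE 0.29). The higher ones included Espl1, the separase that cleaves cohesin (1.65, SE 0.38), E2f2 (1.43, SE 0.32), Fen1, a flap endonuclease (0.87, SE 0.21), and Hmgb2, a chromatin protein (0.74, SE 0.20). With RLE scaling 5 were higher and 13 lower, beside 19.5% and 41.9% of all genes, so the counts moved with those of all genes. They also moved with single libraries, to 6 higher and 12 lower without ntCZC het replicate 1 and 6 higher and 10 lower without tissue null replicate 3, where all genes stayed at 24.4% and 34.6%, and 24.8% and 34.2%.

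**Figure D4:**
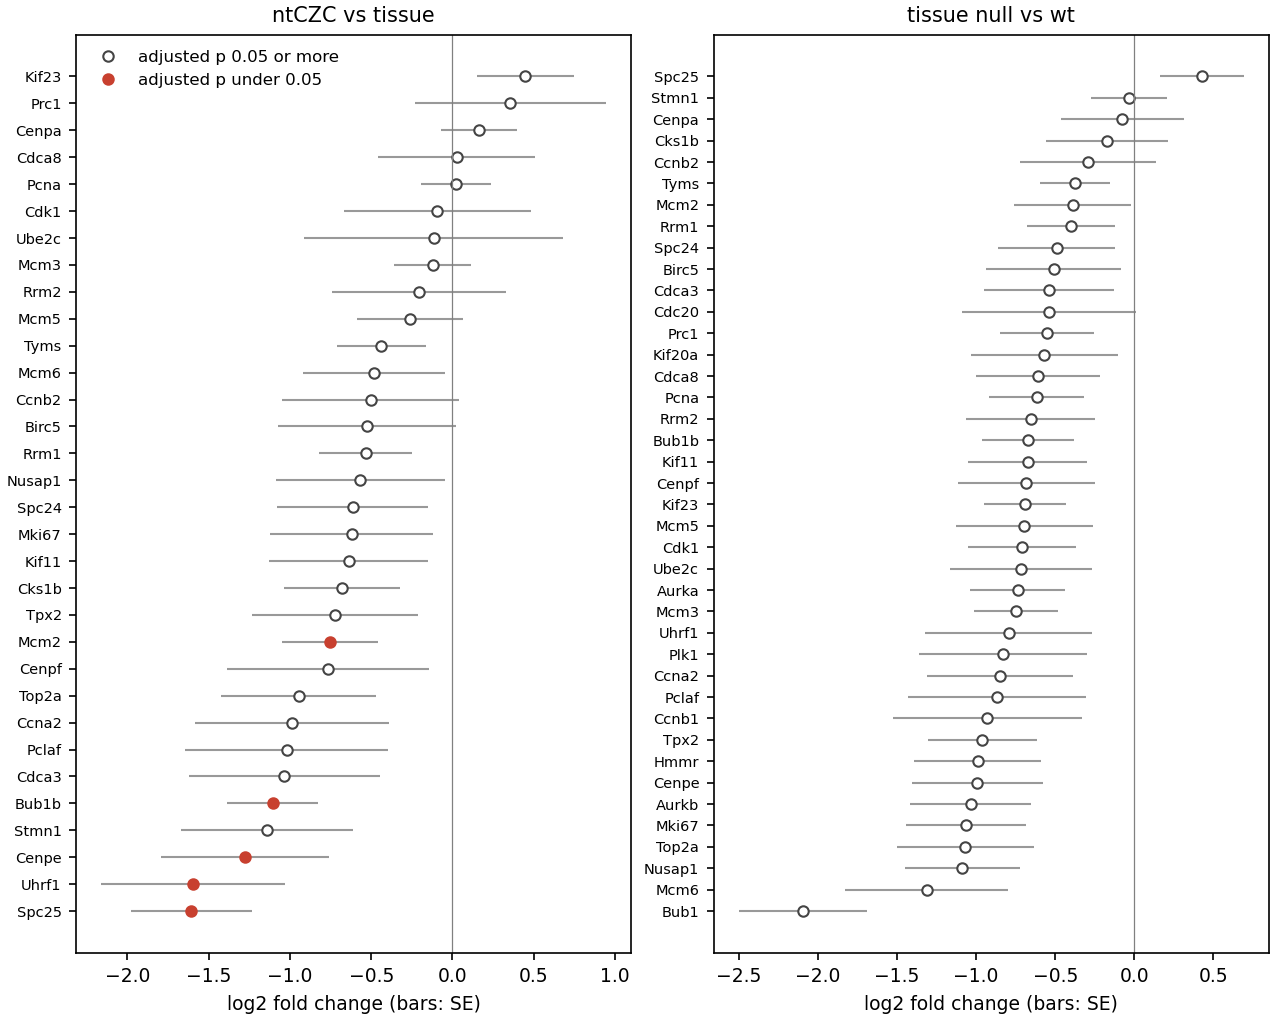
Log2 fold change of each tested member with its SE (bars), for ntCZC against tissue (32 members) and tissue null against wt (40 members), with filled points for an adjusted p under 0.05. The 5 filled points on the left are Mcm2, Bub1b, Cenpe, Uhrf1 and Spc25, and on the right 39 of 40 points lie below 0 with none filled.

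The makeup of the 2 kinds of library differed, so the shares were also compared within classes gated on markers outside the list. A barcode joined a class when at least 3 of its 8 markers were detected and no other class had as many. In ntCZC 90.8% of passing barcodes were gated, all but 2 of them to blood lineages, and in tissue 77.1% were gated, 56.7% of those to blood lineages. The leading genes of gated classes in tissue included their gate markers (Ms4a1 and Pax5 for B cell-like, Xcr1 and Clec9a for dendritic cell-like, Gkn2 and Muc5ac for gastric epithelial-like). The lead of these markers follows from the gate and is no separate check of the class names. None of the 40 members was among any class's leading 10. The plasma cell-like class had 1 of its gate markers among its leading 10 (Jchain, beside immunoglobulin genes) and the hepatocyte-like class 0 (it was led by Msmp, Sult2a2 and Akr1c6).

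Nonclassical monocyte-like barcodes were the most common ntCZC class, 955 in all. Their share with 3 or more members averaged 7.69% ± 5.81 over 7 ntCZC libraries and 3.69% ± 3.72 over 8 tissue libraries (SD), 4.00 points apart (exact two-sided permutation p = 0.127). Pooled over all barcodes of the class, the shares were close, at 5.65% in ntCZC (54 of 955) and 5.22% in tissue (48 of 920). With the broadly detected Stmn1, Cks1b and Pcna left out the difference of library means was 1.71 points (exact permutation p = 0.0183). With Cenpa left out too, a choice made after seeing the data, it was 1.30 points (exact permutation p = 0.0617). At 1000 UMIs none of 920 such barcodes in those ntCZC libraries had 3 members, against 1.11% ± 1.21 (n = 7) in tissue, a difference of -1.11 points (exact permutation p = 0.0210), so the direction turned with depth. Mki67 had a UMI in 3 of the 955, Pcna in 174 and Kif23, a cytokinesis motor, in 104. Among these barcodes with Kif23 only 1 had 5 or more other members.

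Among B cell-like barcodes 10.1% ± 13.2 had 3 or more members over 6 ntCZC libraries and 8.04% ± 5.75 over 8 tissue libraries (SD), 2.02 points apart (exact two-sided permutation p = 0.788). The ntCZC mean rested on het replicate 3, where 28 of 77 (36.4%) met the rule and the library median was 8600 UMIs. At 1000 UMIs none of those 77 did. Without that library the difference was -3.24 points (exact permutation p = 0.288), and at 1000 UMIs it was -4.03 (p = 0.139, exact permutation). In the PBMC library, with a median of 1845 UMIs, 1 of 238 B cell-like and 5 of 256 T cell-like barcodes met the rule. At 1000 UMIs 1 of 189 and 1 of 226 did.

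ntCZC macrophage-like barcodes carried Mki67 without most of the list. Of 155, 40 (25.8%) had a Mki67 UMI, 9 had Top2a and 7 both. The barcodes with Mki67 had a median of 1.5 other members and 7 had 5 or more. Het replicate 3 held 20 of the 40 among 59 barcodes, with 0 Top2a, and null replicate 1 held 14 among 45, with 6 having Top2a. In tissue, macrophage-like barcodes had Mki67 in 4.53% and Top2a in 4.03%. The ntCZC macrophage-like barcodes had a median of 12276 UMIs, and at 1000 UMIs 8 of 140 kept a Mki67 UMI, against 62 of 3025 (2.05%) in tissue.

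Within tissue, the share depended on the class of barcode. Of 21 classes present in at least 6 libraries, 9 differed from the other gated barcodes of the same libraries (exact two-sided sign-flip test over libraries, Benjamini-Hochberg adjusted over the 21). Dendritic cell-like barcodes had the highest share with 3 or more members, 33.4% ± 12.3 (SD, n = 8), against 9.91% in the rest, higher in 8 of 8 libraries (exact p = 0.0078, adjusted 0.0273). Alveolar macrophage-like barcodes followed among the called classes, at 21.9% ± 14.0 (n = 9), higher in 9 of 9 libraries (exact p = 0.0039, adjusted 0.0273). The 7 lower classes were endothelial, classical and nonclassical monocyte, neutrophil, fibroblast, smooth muscle or pericyte, and kidney proximal tubule-like. Part of these shares rested on the broadly detected Stmn1, Cks1b and Pcna. Without them, 41.8% of the alveolar macrophage-like barcodes that met the rule fell below 3 members. This part was 15.7% in dendritic cell-like, 58.1% in endothelial-like and 72.9% in nonclassical monocyte-like barcodes.

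Gastric epithelial-like barcodes had 28.7% ± 24.5 (n = 7), from 6.52% to 78.3%, the latter from 18 of 23 barcodes of het replicate 2. Epididymal epithelial-like barcodes had 18.8% ± 12.3 (n = 7), T cell-like 18.1% ± 17.3 (n = 9) and ciliated-like 11.6% ± 7.75 (n = 8). None of these 4 passed the adjusted test (adjusted exact p of 0.0703, 0.0703, 0.313 and 0.647). The lowest classes were hepatocyte-like at 2.92% ± 3.64 (n = 6), neutrophil-like at 3.13% ± 2.30 (n = 8) and nonclassical monocyte-like at 3.69% ± 3.72 (n = 8). Without tissue het replicate 2 no class passed, and 6 passed without tissue null replicate 3.

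Equal depth reordered the classes. At 1000 UMIs dendritic cell-like barcodes stayed highest, at 18.2% ± 5.24 (n = 8, higher in 8 of 8 libraries, adjusted exact p = 0.0247), and T cell-like barcodes passed the test, at 10.4% ± 10.5 (n = 9, higher in 8 of 9, adjusted exact p = 0.0247). Alveolar macrophage-like barcodes were at 5.14% ± 1.97 (n = 8) and no longer passed (adjusted exact p = 0.210). Epididymal epithelial-like barcodes were at 0.608% ± 0.596 (n = 7) and ciliated-like at 0.304% ± 0.444 (n = 8), both now lower than the rest (adjusted exact p of 0.0297 and 0.0247). None of 184 kidney distal nephron-like barcodes kept 3 members. Gastric epithelial-like barcodes were at 15.6% ± 16.8 (n = 6).

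**Figure D5:**
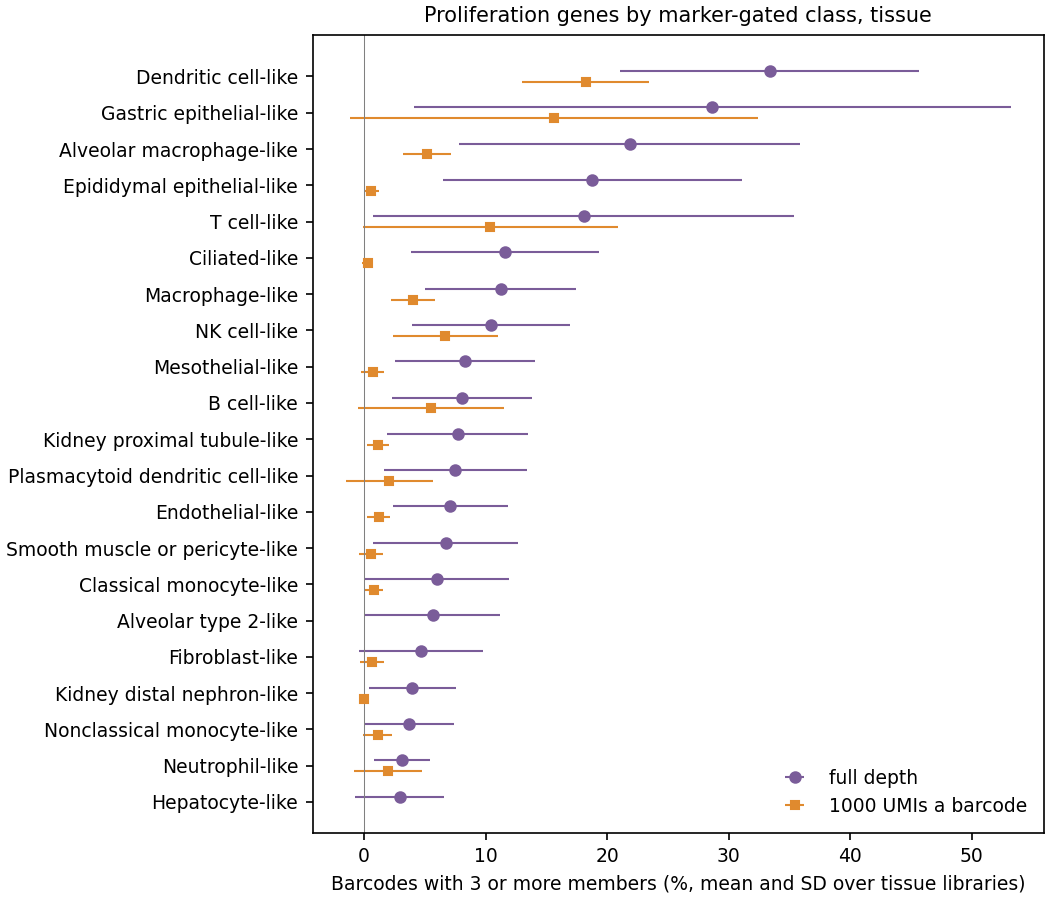
Mean share of barcodes with 3 or more members (%, bars SD over tissue libraries) for the 21 classes in order of their full-depth mean (circles), with the share at 1000 UMIs (squares) for the 19 classes that kept enough libraries. Dendritic cell-like barcodes lead at both depths, 33.4% and 18.2%, whereas epididymal epithelial-like barcodes drop from 18.8% to 0.608%.

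The 1888 tissue barcodes with 10 or more members were 444 B cell-like (23.5%), 275 alveolar macrophage-like (14.6%), 247 T cell-like (13.1%), 101 plasma cell-like, 96 dendritic cell-like, 88 macrophage-like, 83 endothelial-like and 73 gastric epithelial-like, with 286 outside every gate. Erythroid precursor-like barcodes, a class known for rapid division, numbered 4, of which 3 had 10 or more members. As a share of the class, 18.9% of dendritic cell-like, 13.1% of plasma cell-like, 12.9% of gastric epithelial-like and 6.40% of B cell-like barcodes reached 10 members, against 0.707% of endothelial-like ones. Without tissue wt replicate 4, the plasma cell-like share was 5.86% (19 of 324) and the B cell-like share 2.99% (123 of 4120), while the dendritic cell-like share was 20.4% and the gastric epithelial-like share 13.9%.

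In dendritic cell-like barcodes Mki67 had a UMI in 25.6%, Top2a in 19.7% and Stmn1 in 28.2%, and barcodes with 10 or more members held 90.1% of the members' UMIs. In gastric epithelial-like barcodes Mki67 was in 17.9% and these barcodes held 88.7% of the UMIs. In plasma cell-like barcodes Mki67 was in 23.3% and Top2a in 15.5%. In endothelial-like barcodes Mki67 was in 1.45% and Stmn1 in 23.0%, and 26.1% of the members' UMIs lay in barcodes with 10 or more. Doublets, droplets with 2 cells, were scored by Scrublet in the tissue libraries, and not in ntCZC or PBMC. A set share of each tissue library with the top scores was marked, 0.8% per 1000 deposited barcodes and at most 25%. Among barcodes with 10 or more members, 2.08% were marked in dendritic cell-like (4.93% of the whole class), 11.5% in B cell-like (12.1%) and 24.7% in gastric epithelial-like ones (21.6%). The marked share was 62.7% in endothelial-like (17.4% of the class), 69.4% in neutrophil-like (22.8%) and 76.9% in fibroblast-like ones (15.3%). With marked barcodes removed, 7 of the 18 classes that kept enough libraries differed from the rest, against 9 of 21 with them kept.

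Tissue wt replicate 4, a female library, held 737 of the 1888 barcodes with 10 or more members, of which 321 were B cell-like (43.6%) and 82 plasma cell-like. Its B cell-like barcodes had 3 or more members in 18.3% (516 of 2817) at full depth and in 19.4% at 1000 UMIs, against 0% to 5.91% at 1000 UMIs in the other 7 tissue libraries with enough of them. T cell-like barcodes were highest at 1000 UMIs in null replicate 2, at 32.5% (38 of 117).

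The next comparisons asked whether the programme differed with the Nalcn label. In tissue the share with 3 or more members averaged 6.51% ± 2.60 over the 4 het and null libraries and 14.4% ± 5.93 over the 5 wt libraries (SD), a difference of -7.89 points (exact two-sided permutation p = 0.0397). The wt libraries were at 17.0%, 15.4%, 6.16%, 11.5% and 21.95%, the het libraries at 10.1% and 6.69%, and the null libraries at 4.41% and 4.82%. Both null libraries were below every wt library, and het libraries lay among the lower wt ones. By labelled sex the difference was -5.76 points in males (3 against 3) and -11.9 in females (1 against 2). The female het or null library was null replicate 3, which also held Y-linked RNA and epididymal epithelial-like barcodes. The second value is therefore not one of female tissue alone. Leaving out 1 library at a time gave exact permutation p values of 0.0286 to 0.125, and without tissue null replicate 3 the difference was -7.32 points (p = 0.125, exact).

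The same libraries differed in depth, at medians of 1678 ± 532 UMIs (n = 4) in het and null and 3279 ± 1887 (n = 5) in wt. At 1000 UMIs the shares were 2.65% ± 1.17 and 4.83% ± 3.29, or -2.19 points (exact permutation p = 0.302), with wt libraries at 2.06%, 2.59%, 2.78%, 9.16% and 7.57%, het at 1.82% and 2.04% and null at 4.37% and 2.36%. The wt mean rested on replicates 4 and 5, and the groups overlapped. Barcodes below 1000 UMIs were left out unevenly, 7236 of 29620 in het and null and 4852 of 43138 in wt. They were 4115 of 8710 in null replicate 2 and 0 of 18242 in wt replicate 2. Thinning thus did not make the groups alike in which barcodes were counted. With 10 or more members the shares were 1.40% ± 0.136 and 3.91% ± 2.44, or -2.51 points (exact permutation p = 0.0635), and the groups did not overlap, the highest het or null library being at 1.52% and the lowest wt library at 1.95%. This share was at full depth and also followed it, from 0.0331% of tissue barcodes under 1000 UMIs to 2.95% at 2000 to under 5000 and 9.65% at 10000 or more.

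Within single classes, 0 of 19 differed between het and null libraries and wt after adjustment (exact two-sided permutation, Benjamini-Hochberg over the 19), and 1 had an unadjusted p under 0.05. It was the B cell-like class, at 3.87% ± 1.82 (n = 4) against 12.2% ± 5.25 (n = 4), with exact p = 0.0286, the smallest that 4 against 4 allows (adjusted 0.543). At 1000 UMIs 0 of 18 classes had an unadjusted p under 0.05 (smallest exact permutation p = 0.0952). Dendritic cell-like barcodes were at 29.3% ± 11.7 and 37.4% ± 13.2 (exact permutation p = 0.400). Gastric epithelial-like barcodes were at 38.9% ± 36.4 (n = 3) and 21.0% ± 11.8 (n = 4), with exact permutation p = 0.400. In 18 of the 19 classes the het and null mean was the lower one at full depth, and in 10 of 18 at 1000 UMIs.

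For single genes, edgeR called 0 of 40 members in tissue null against wt, where 0% of 17196 genes were higher and 0% lower. At an unadjusted p under 0.05 there were 12 members, all lower, where 13.4% of all genes had such a p and 5.91% were also lower. The count was 7 without wt replicate 4, where 12.7% of all genes had such a p. It also moved with either null library left out. Only 1 null library then remains, so only the members' median is given for those fits, below. DESeq2 called 1 member, lower, where it called 4.17% of all genes (717, of which 254 lower). All but Spc25 (log2 0.43, SE 0.26) had a negative log2 change, with a median of -0.69 against -0.01 over all genes. Bub1 had the largest change, -2.10 (SE 0.40, adjusted p = 0.145), from 4.66 ± 2.73 CPM in wt (n = 5) to 1.04 ± 0.0447 in null (n = 2). Mki67 was at 47.8 ± 27.8 and 21.3 ± 0.387 CPM (log2 -1.06, SE 0.38, adjusted p = 0.303), Top2a at 56.6 ± 42.2 and 23.5 ± 1.57 CPM (-1.07, SE 0.43, adjusted p = 0.348), Pcna at 47.2 ± 13.2 and 31.3 ± 5.6 CPM (-0.62, SE 0.30, adjusted p = 0.415), and Stmn1 at 101 ± 26.5 and 101 ± 7.33 CPM (-0.03, SE 0.24, adjusted p = 0.972).

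The members' median in null against wt was -0.12 without null replicate 3, the library with both Xist and Y-linked RNA, -1.33 without null replicate 2 and -0.39 without wt replicate 4. The 82 other cell cycle genes had a median of -0.58, with 4 positive and 0 called, and that median was -0.12 (30 positive), -1.20 and -0.38 without the same 3 libraries in turn. In tissue het against wt, which shares the wt libraries, 0% of genes were called higher and 0% lower, and 0 members were called. There 1 member had an unadjusted p under 0.05, against 9.95% of all genes, and the median was -0.47. Without tissue null replicate 2 or 3, which enter the same fit, the median was -0.28 and -0.27, and without the sex covariate it was -0.75. DESeq2 called 0 members and 0.890% of all genes. Mki67 was at 28.5 ± 4.11 CPM in het (n = 2, log2 -0.36, SE 0.39, adjusted p = 0.778). Top2a was at 24.6 ± 4.51 CPM (-0.66, SE 0.45, adjusted p = 0.645), Pcna at 40.3 ± 4.55 CPM (-0.34, SE 0.31, adjusted p = 0.738) and Stmn1 at 116 ± 1.76 CPM (0.11, SE 0.25, adjusted p = 0.924).

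In ntCZC the share with 3 or more members was 12.1% ± 4.90 (SD, n = 4) in null and 15.2% ± 7.72 (SD, n = 4) in het, a difference of -3.09 points (exact permutation p = 0.657, two-sided, where 0.0286 is the smallest this design allows). The null libraries were at 15.9%, 7.75%, 16.7% and 7.92%, and the het libraries at 13.9%, 14.5%, 25.5% and 6.75%. The groups overlapped throughout. At 1000 UMIs the difference was 1.24 points (exact permutation p = 0.714), and without het replicate 3 it was 0.350 points at full depth. Sex was uneven, with 3 females among the 4 null libraries and 1 among the 4 het libraries. Within a sex the difference was -3.97 points in males (1 against 3) and -11.96 in females (3 against 1), with no test. Het and null together exceeded wt by 7.03 points (13.6% ± 6.21, n = 8, against 6.58% ± 3.55, n = 2), with exact permutation p = 0.178, where the design allows none below 0.0222. The wt value of replicate 3 was 1 of 11 barcodes, and without that library the difference was 9.54 points. Library medians were 5279 ± 1546 UMIs in het and null and 2870 ± 410 in wt. At 1000 UMIs the difference was 1.11 points (exact permutation p = 0.644), with 10 or more members 0.996 (p = 0.644, exact permutation) and with Stmn1, Cks1b and Pcna left out 2.20 (p = 0.689, exact permutation).

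Among single genes 0 of 31 members tested were called in ntCZC null against het, where 0% of 9172 genes were higher and 0% lower. No member had an unadjusted p under 0.05, where 7.49% of all genes did, and DESeq2 called 0 (0.131% of all genes) but gave no adjusted p for 26 of the 31. With 1 library left out, 14 members, all lower, had such a p without het replicate 3 (1.55% of all genes), 6, all lower, without null replicate 1 (7.51%) and 5, all higher, without null replicate 2 (9.11%). The median log2 change was -0.40, and it was -3.57 without het replicate 3, -1.47 without null replicate 1, 0.011 without het replicate 1 and 2.01 without null replicate 2, so its direction was set by single libraries. Mki67 was at 16.0 ± 26.5 CPM in null and 25.8 ± 25.8 in het (log2 -1.72, SE 1.34, adjusted p = 0.873), and Stmn1 at 28.7 ± 37.2 and 60.9 ± 59.5 CPM (-0.51, SE 2.71, adjusted p = 1.00). Top2a was at 13.4 ± 16.8 and 20.5 ± 23.7 CPM (-0.45, SE 1.28, adjusted p = 1.00) and Pcna at 35.95 ± 13.9 and 52.6 ± 20.3 CPM (-0.29, SE 0.36, adjusted p = 0.935). In null the Mki67 mean came from replicate 1, at 55.6 CPM, with the other 3 at 1.01 to 4.20.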

How the data were processed

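Single-cell libraries were made with the 10x 3′ v3 chemistry and sequenced on a NovaSeq. Reads were aligned by the authors to mm10 with Cell Ranger (2.1.1 in the submitters' processing notes, 3.0.2 in the matrix headers) and used Seurat downstream. They deposited filtered matrices of UMI counts (whole numbers, not normalized), before their quality filters and without doublet removal. Hashtag counts, which would give the organ, were not used here. The 40 members, the 82 other cell cycle genes and the class markers were chosen with earlier results of these data known.

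The filter kept barcodes in which 200 or more genes were detected and mitochondrial UMIs made up no more than 25%. Shares per library were compared by exact permutation of library labels or, for a class against the rest of its libraries, by exact sign flips, in classes with at least 20 barcodes per library, with SciPy 1.17.1. Thinning drew 1000 UMIs per barcode without replacement. Counts were summed per library and tested with edgeR 4.0.16 (TMM, filterByExpr, labelled sex as covariate, quasi-likelihood, Benjamini-Hochberg at 0.05), with DESeq2 1.42.0 as an alternative. SE is the log2 change divided by the square root of F. Doublets were scored with Scrublet in scanpy 1.11.5, in tissue libraries only, and kept. Promoter windows came from the RefSeq table and gene positions from the GENCODE annotation of GRCm38.

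Mki67, Top2a, Stmn1 and Pcna are named in every comparison, with up to 8 members past the threshold by size of change. Other members, and the members of other lists, were named after their values were seen, as extremes of a range or as examples. The 6 highest and 3 lowest classes by share are named. The permutation test and the edgeR fit were tested on simulated data. Library totals ran from 161541 to 2600526 UMIs in ntCZC and from 8571019 to 139793927 in the tissue libraries with a group, and intervals and limits for a count of 0 (3 counts) cover counting error only. Other thresholds for members, barcode filters, gates, scalings and left-out libraries were tried.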

Additional observations from a re-analysis of the deposited data

Results flagged for a closer look

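In groups of 4 to 10 libraries, a library whose gap to the nearest other took up most of the group's range was marked by Dixon's test. Of 39 groups tested, 8 were marked, where chance marks about 1 in 20, and several of the 8 share a library. ntCZC null replicate 1 stood above the other 3 null libraries in 4 measures. They were the share with 3 or more members at 1000 UMIs (7.76%, the next library at 0.897%), the share with 10 or more members (6.52%, next 0.417%), Mki67 (55.6 CPM, next 4.20) and Top2a (38.6 CPM, next 5.57). This library had 138 passing barcodes, of which 9 had 10 or more members, and 4.63% of its UMIs were haemoglobin.

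In tissue, T cell-like barcodes of wt replicate 5 were at 60.9% with 3 or more members (14 of 23 barcodes, next library 25.6%), in the library with the highest median UMI count, 6363. Alveolar macrophage-like barcodes of wt replicate 1 were at 53.6% (339 of 632, next 27.2%), and at 1000 UMIs they were at 3.36%, inside the range of the other libraries. Neutrophil-like barcodes of wt replicate 2 were at 8.41% (195 of 2318, next 3.88%). In ntCZC, B cell-like barcodes of het replicate 3 were at 36.4% (next 9.68%), and at 1000 UMIs at 0%.

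Libraries outside the comparisons also held barcodes with 3 or more members. The tissue libraries without a group were at 4.09% (4323 barcodes, labelled replicate 3) and 5.15% (15974 barcodes, labelled replicate 1). The PBMC library was at 1.47% (679 barcodes).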

How the results depend on the processing

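Between ntCZC and tissue, the library mean share with 3 or more members was 1.32 points higher in ntCZC. Pooled over barcodes, the share was lower in ntCZC, at 9.20% against 10.4%. The difference of means turned to -2.30 with 5 or more members, -2.54 at 1000 UMIs and -1.69 with 10 or more members. It was -0.295 with Cenpa, Stmn1, Cks1b and Pcna left out. Over matched pairs in a replicate block it was -2.598 at 1000 UMIs and 0.299 at full depth. Over the left-out libraries it ran from -0.156 to 2.70. In tissue, het and null against wt no longer passed with 2 or more members (-12.7), at 1000 UMIs (-2.19) or with 10 or more members (-2.51), and over left-out libraries ran from -9.94 to -5.997. ntCZC null against het turned to 1.24 at 1000 UMIs and 0.867 with 10 or more members, and ran from -5.89 to 0.350 over left-out libraries. Nonclassical monocyte-like barcodes passed with 37 members (1.71), and turned to -1.11 at 1000 UMIs and -0.293 with 10 or more members. B cell-like barcodes turned to -1.43 with 5 or more members, -4.03 at 1000 UMIs, -1.41 under the study's filter and -2.26 with 10 or more members, and ran from -3.24 to 4.03 over left-out libraries. Counts of 10 or more members, leaving out libraries from the class shares at that count, the matched pairs, leaving out Cenpa and leaving out barcodes shared between libraries were chosen after seeing the data. The last changed no call. Of 21 classes, 9 passed, and 4 with 2 or more members, 10 with 37 members, 12 with 10 or more members and 0 to 9 over left-out libraries.

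Members called between ntCZC and tissue numbered 5, but 9 with RLE scaling (all lower, as were 41.9% of all genes), 3 with all deposited barcodes (1 higher and 2 lower, where 28.5% and 36.04% of all genes were), 3 without the sex covariate (all lower, against 34.1%) and 2 to 15 over left-out libraries. DESeq2 called 1 member in tissue null against wt, where it called 4.17% of all genes. Log2 changes near 0 turned as follows. Pcna in ntCZC against tissue was -0.15 with RLE scaling, -0.046 with no filter and -0.083 to 0.15 over left-out libraries. Stmn1 ran from -0.18 to 0.17 in tissue null against wt and from -0.0073 to 0.19 in tissue het against wt. In ntCZC null against het Stmn1 was 0.18 with DESeq2 and ran from -5.34 to 5.88, Top2a from -2.33 to 1.55 and Pcna from -0.77 to 0.21 over left-out libraries. The causes were not tested.

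With the replicate number as a block, 4 members were called between ntCZC and tissue (1 higher and 3 lower, where 17.1% and 28.9% of all genes were, and Bub1b, Mcm2 and Uhrf1 no longer passed), 0 in the other 3 fits. At an unadjusted p under 0.05 the block gave 5 of 40 in tissue null against wt (7.69% of all genes), 6 of 40 in tissue het against wt (11.3%) and 4 of 31, all lower, in ntCZC null against het (1.85%). With it Stmn1 in tissue null against wt was 0.10 and the members' median there -0.29, and ntCZC null against het stayed at -3.09 points (exact sign-flip p = 0.5, the smallest possible being 0.125). Correlations between same-numbered libraries of their deviations from group means ran from -0.23 to 0.09, and the number was not taken as a pairing. In groups of 2 libraries these deviations mirror each other, so this check cannot show whether libraries shared mice. At 1000 UMIs a count of 0 allowed a share of up to 33.3% in ntCZC wt replicate 3, the smallest library.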

Other observations

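The tissue libraries without a group had 2.12% (labelled replicate 3) and 4.63% (labelled replicate 1) of barcodes with 3 or more members at 1000 UMIs, inside the range of the other tissue libraries. In the second, T cell-like barcodes were at 30.6% (97 of 317) and B cell-like ones at 13.1% (77 of 586).

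Kif23 had a UMI in 32 of 112 neutrophil-like barcodes of ntCZC and in 8 of 37 of PBMC, where Mki67, Top2a and Stmn1 had none. The 32 barcodes of ntCZC had a median of 0 other members. In tissue, neutrophil-like barcodes had Kif23 in 4.92% and Mki67 in 1.81%. In ntCZC, Kif23 was at 18.8 ± 11.7 CPM (SD, n = 10) against 13.6 ± 4.23 in tissue (n = 9), a log2 change of 0.45 (SE 0.30, edgeR adjusted p = 0.202). These values were looked at after the data had been seen.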
